A study of Mus musculus with 40 samples.

Results

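The data described here are the transcriptomes of 9 primary mammary tumors grown from 4T1 cells. Of these, 5 came from mice treated with chitin and 4 from untreated mice, out of 39 tumors with deposited values in the whole series. The members were chosen by their group labels alone, and every gene of the deposited table entered the comparison, as the mean of the chitin-treated tumors minus the mean of the untreated tumors. 4T1 is a BALB/c mouse line used as a model of triple-negative breast cancer. All 9 tumors came from wild-type female BALB/c mice that had been lactating when luciferase-expressing 4T1 cells were put into their mammary ducts, and they were taken 5 weeks later, so that both groups shared the strain, the sex, the reporter and the site of growth. The chitin group received repeated intraperitoneal injections of 1 mg of chitin particles per mouse, starting after the tumors had become invasive, and no antibody. The untreated group carried the same tumors without chitin or antibody. The study describes no injection of the carrier fluid alone for this group, so chitin and the injections cannot be told apart. Untreated tumor 3 was set aside by the authors for degraded RNA and was not analysed here. Each tumor is a single library of total RNA from a piece of tissue, and 4T1 is a single cell line, so the groups describe variation between mice that carry the same line. The study gives the age of the mice at mating and the intervals up to sampling, but not their exact age at sampling.

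Chitin is a polymer of N-acetylglucosamine that mammals do not make. Phagocytes take up chitin particles and sense them through receptors such as TLR2 and dectin-1, and true chitinases cut the polymer. The chitinase-like proteins, among them CHI3L1 (gene Chil1 in the mouse) and Ym1 (Chil3), bind chitin without cutting it and are made by macrophages, neutrophils and epithelial cells in inflamed tissue and tumors. The comparison asks how the tumor transcriptome differed when chitin was given as a ligand that occupies these proteins.

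No gene passed the test between chitin-treated and untreated 4T1 tumors. With limma on the deposited variance-stabilized values, 0 of 14318 genes (0.0%) had a Benjamini-Hochberg adjusted p under 0.05, and every gene's adjusted p was 1. At an unadjusted p under 0.05 there were 397 genes (2.77%), of which 198 (1.38%) lay lower and 199 (1.39%) higher with chitin. The share of 2.77% lies below the 0.05 that this threshold sets for genes that do not differ. limma-voom on the recovered reads called 0 genes as well, with 347 genes under an unadjusted p of 0.05. Centring each tumor on its median moved the split at an unadjusted p under 0.05 to 256 genes higher and 128 lower. All values below are therefore descriptions of these 9 tumors, and no gene or gene list can be said to have changed.

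The differences were small over most of the table. The difference was under 0.5 in size on the log2 scale for 98.8% of genes, and 12 genes differed by at least 1. The median over all genes was -0.00, with 51.0% of genes lower and 48.9% higher with chitin. The median standard error of a difference was 0.13. In 45 genes (0.314%) every chitin-treated tumor lay below every untreated tumor, and in 61 genes (0.426%) every chitin-treated tumor lay above. Of these, 31 lower and 41 higher genes also had an unadjusted p under 0.05, and their differences are marked on the plot of differences by gene level. If the group labels were exchangeable, exact permutation would separate a gene completely, in either direction, with a probability of 0.0159. That is a larger share than was seen here, so a lack of overlap is by itself no sign of a difference.

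**Figure D1:**
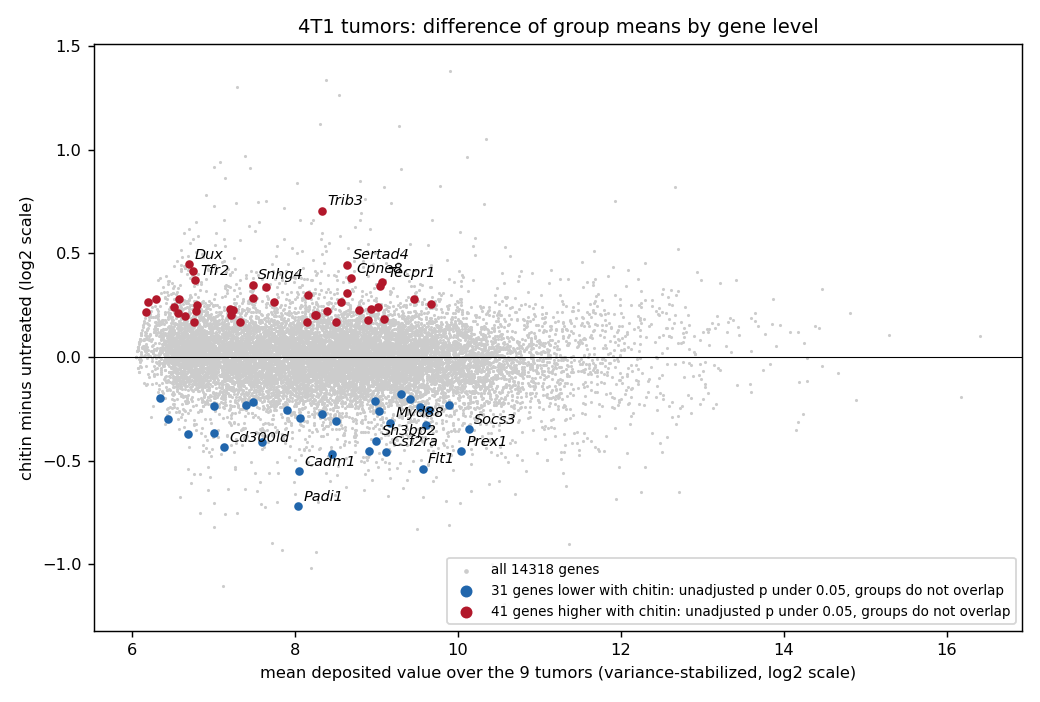
Difference of group means (chitin minus untreated, log2 scale, y axis) against the mean deposited value over the 9 tumors (x axis) for 14318 genes. Blue and red points are the 31 lower and 41 higher genes with an unadjusted p under 0.05 and no overlap between the groups, most of them within 0.5 of the zero line, with Padi1 at -0.72 and Trib3 at 0.70 at the extremes.

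The largest of these lower differences was in Padi1, a peptidylarginine deiminase that converts arginine to citrulline in epithelial proteins. Padi1 (Entrez 18599, mm10 chromosome 4, 140812981 to 140845778) had 248, 256, 190.4 and 220.2 normalized reads in the untreated tumors and 118, 94.4, 109.8, 130.1 and 56.1 in the chitin-treated tumors. Every chitin-treated tumor was below the lowest untreated tumor, and the difference was -0.72 ± 0.22 (SE) on the log2 scale. Gm13032, a long noncoding RNA at mm10 chromosome 4, 140810993 to 140817511, overlaps Padi1 on the chromosome. It had 134, 109, 96.6 and 119 normalized reads in the untreated tumors and 64.5, 68.5, 64.4, 73.9 and 51.1 in the chitin-treated tumors, again without overlap, and differed by -0.41 ± 0.14. The authors counted reads by strand, but 2 features that share an interval are not independent observations. Other deiminase genes of the family overlapped between the groups, with differences whose sign depended on single tumors, of -0.14 for Padi2, 0.14 for Padi3 and -0.07 for Padi4 (these 3 were looked up after the values of Padi1 were seen). Evpl, which encodes envoplakin of the cornified envelope, had 279, 328, 297 and 286 normalized reads in the untreated tumors and 210.5, 186, 186, 186 and 158 in the chitin-treated tumors and differed by -0.47 ± 0.17.

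Csf2ra, the ligand-binding chain of the GM-CSF receptor (mm10 chromosome 19, 61217191 to 61228461), had 436, 508, 599 and 612 normalized reads in the untreated tumors and 244, 423, 421, 329 and 400.1 in the chitin-treated tumors. Chitin tumor 1 was the lowest of all, the groups did not overlap, and the difference was -0.46 ± 0.20. Prex1, a Rac exchange factor used in neutrophil migration, had 1008, 1082, 1242 and 1164 normalized reads in the untreated tumors and 576, 996, 927, 816 and 673 in the chitin-treated tumors and differed by -0.46 ± 0.20. Its closest pair of tumors across the groups were chitin tumor 2 and untreated tumor 1, which nearly touched. Cd300ld, a myeloid surface receptor, had 53.2, 46.9, 67.4 and 72.1 normalized reads in the untreated tumors and 19.9, 20.4, 35.2, 27.8 and 26.2 in the chitin-treated tumors and differed by -0.44 ± 0.15.

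Sh3bp2, an adaptor of myeloid cells and osteoclasts that couples receptors to Syk (mm10 chromosome 5, 34525784 to 34563639), had the smallest unadjusted p of the table. It had 484, 450.3, 446 and 514 normalized reads in the untreated tumors and 271, 289, 373, 397 and 330.3 in the chitin-treated tumors, and its difference was -0.40 ± 0.10. The groups were separate, with chitin tumors 3 and 4 nearest to the untreated range. The 2 genes that follow overlapped between the groups. Fcer1g, the shared signaling chain of Fc receptors, had 432, 371, 509 and 503 normalized reads in the untreated tumors and 154, 416, 336, 259 and 356 in the chitin-treated tumors and differed by -0.47 ± 0.17. Here chitin tumor 2 lay above untreated tumor 2. Ncf4, a cytosolic subunit of the phagocyte NADPH oxidase, had 445, 494, 580.2 and 579 normalized reads in the untreated tumors and 201, 490.4, 398, 295 and 359 in the chitin-treated tumors, overlapped in the same way through chitin tumor 2, and differed by -0.49 ± 0.20.

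Flt1 encodes VEGF receptor 1, which is found on endothelium and monocytes (mm10 chromosome 5, 147561604 to 147726438). It had 744, 766, 922 and 798 normalized reads in the untreated tumors and 589.8, 311, 683, 681 and 414 in the chitin-treated tumors, with chitin tumors 2 and 5 lowest, no overlap, and a difference of -0.54 ± 0.16. Cadm1, a cell adhesion molecule, had 192, 192, 195 and 261 normalized reads in the untreated tumors and 60.7, 169, 176, 73.3 and 107 in the chitin-treated tumors and differed by -0.55 ± 0.24. Chitin tumors 2 and 3 were closest to the untreated tumors and chitin tumors 1 and 4 farthest below. Cpne2, a calcium-dependent phospholipid-binding copine, had 463, 438, 409 and 489 normalized reads in the untreated tumors and 234, 331, 315, 267 and 349 in the chitin-treated tumors and differed by -0.45 ± 0.13. Plekha3, which binds phosphatidylinositol 4-phosphate at the Golgi, differed by -0.26 ± 0.07 without overlap. Hoxa6, a homeobox gene with one of the 5 smallest p values in its direction, differed by -0.35 ± 0.10, and chitin tumor 3 lay just inside the untreated range. Selenbp2 differed by -0.25 ± 0.07 from a level of under 10 reads per tumor on average in both groups.

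**Figure D2:**
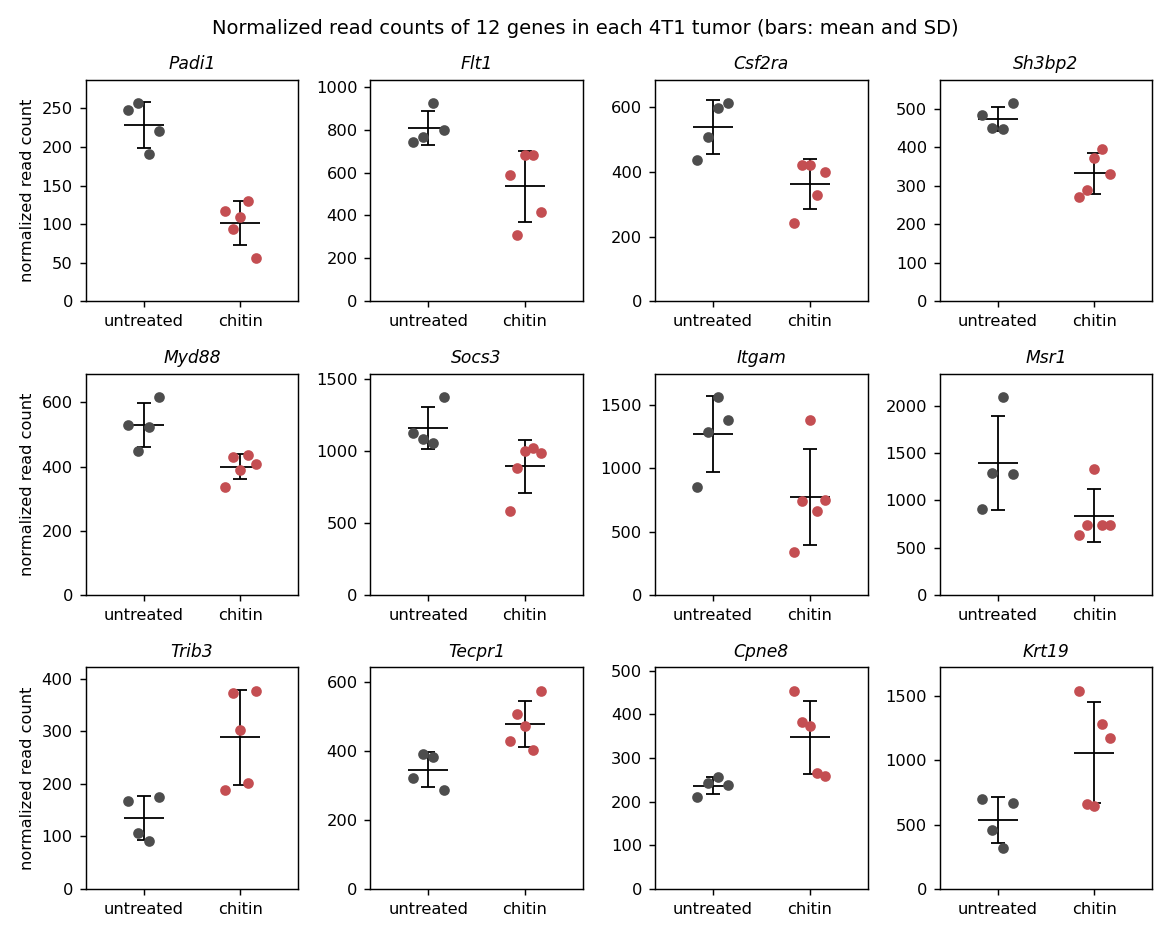
Normalized read counts (y axis, linear from 0) of 12 genes in the 4 untreated and 5 chitin-treated 4T1 tumors, one point per tumor, with the mean as a line and the SD as bars. Padi1, Flt1, Csf2ra, Sh3bp2, Myd88, Socs3, Trib3, Tecpr1 and Cpne8 show no overlap between the groups, whereas Itgam, Msr1 and Krt19 overlap.

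The largest higher difference among separated groups was in Trib3, a pseudokinase that is induced in stressed cells. Trib3 (mm10 chromosome 2, 152337425 to 152344060) had 167, 106, 91.1 and 174 normalized reads in the untreated tumors and 189, 372, 303, 201 and 376 in the chitin-treated tumors. The 5 chitin-treated tumors spanned a wide range but all lay above untreated tumor 5, and the difference was 0.70 ± 0.22 (SE). Sertad4 had 158, 236, 249 and 237 normalized reads in the untreated tumors and 312, 469, 275, 304 and 344 in the chitin-treated tumors and differed by 0.44 ± 0.14. Untreated tumor 1 was low for Sertad4 and chitin tumor 2 high, with the rest closer together.

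Tecpr1, which tethers autophagosomes to lysosomes, had 323, 391, 383 and 287 normalized reads in the untreated tumors and 429, 508, 473, 403 and 573 in the chitin-treated tumors and differed by 0.36 ± 0.10. Cpne8, another copine, had 210.4, 242, 257 and 237 normalized reads in the untreated tumors and 453, 383, 373, 266 and 259 in the chitin-treated tumors and differed by 0.38 ± 0.12, with chitin tumors 4 and 5 just above the untreated range. Thus one copine lay lower and another higher in the same tumors. Rell1, a relative of the TNF receptor family, had 351, 358, 283 and 376 normalized reads in the untreated tumors and 446, 413, 410.0, 509.8 and 543 in the chitin-treated tumors and differed by 0.34 ± 0.14. Kif21a, a kinesin, differed by 0.28 ± 0.08, with chitin tumor 3 inside the untreated range. Tfr2, the iron-sensing transferrin receptor 2, had 10.6, 7.82, 9.11 and 6.55 normalized reads in the untreated tumors and 35.1, 32.4, 13.6, 24.2 and 26.2 in the chitin-treated tumors, with a difference of 0.37 ± 0.09. Its untreated tumors had under 10 reads each on average, so the variance-stabilized difference understates the ratio.

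The remaining higher genes of the same rule are weakly expressed or noncoding. Snhg4, a small nucleolar RNA host gene, had 56.7, 51.6, 41.9 and 57.7 normalized reads in the untreated tumors and 141, 78.6, 83.4, 67.4 and 81.0 in the chitin-treated tumors and differed by 0.35 ± 0.10. Chitin tumor 1 stood above the other chitin-treated tumors for it. Gm11532, a long noncoding RNA, differed by 0.34 ± 0.12, and BC021767, a transcribed pseudogene, by 0.41 ± 0.13 at few reads in the untreated tumors. Dux, the double homeobox activator of the early embryonic genome, had 7.09, 1.56, 5.47 and 7.86 normalized reads in the untreated tumors and 10.4, 81.4, 10.2, 10.1 and 34.9 in the chitin-treated tumors and differed by 0.45 ± 0.18. Dux exists in near-identical repeated copies, so its reads are uncertain, and chitin tumor 2 lay far above the others.

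The same genes can be followed in tumors that share no library with this comparison. The first is chitin plus anti-PD-1 (5 tumors) against anti-PD-1 alone (5 tumors), also in 4T1, with 200 µg of antibody per mouse weekly in both groups. The second is chitin (5 tumors) against untreated (5 tumors) in 66cl4, another BALB/c mammary tumor line. In these, limma called 0 genes (0.0% in each), with 800 genes lower (5.59%) and 507 higher (3.54%) at an unadjusted p under 0.05 in the first, and 1639 (11.4%) in either direction in the second. The first of these counts of 0 depended on 1 library: without anti-PD-1 tumor 2 it was 202, and with tumor weights 2127. Of the 31 lower genes, 23 (74.2%) were also lower with chitin plus anti-PD-1 against anti-PD-1, where 47.5% of all genes were lower, and 10 of them had an unadjusted p under 0.05. Of the 41 higher genes, 33 (80.5%) were also higher there, where 52.5% of all genes were, and 7 had an unadjusted p under 0.05. Their median differences there were -0.14 and 0.08, beside -0.31 and 0.25 with chitin alone, the values by which the genes had been chosen. Genes can vary together across tumors, so the genes in these counts, here and in 66cl4, are not independent observations.

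Cadm1 differed by -0.88, Prex1 by -0.67, Csf2ra by -0.41, Cpne2 by -0.40 and Evpl by -0.36 when chitin was added to anti-PD-1. Sertad4 differed by 0.37 and Trib3 by 0.35. Flt1 lay at 0.09, and Plekha3 lay in the other direction, at 0.20. The difference of the chitin difference with and without anti-PD-1 passed an adjusted p of 0.05 in 0 genes (0.0%), with 648 (4.53%) at an unadjusted p under 0.05. Its smallest p values belonged to Plekha3, to Mtfr1, a regulator of mitochondrial fission that differed by -0.22 with chitin alone and 0.28 with chitin added to anti-PD-1, and to Pbp2, which had under 10 reads per tumor.

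In 66cl4 tumors most of the lower genes lay higher. Of the 31 genes, 7 (22.6%) were lower with chitin in 66cl4, where 50.0% of all genes were, and their median difference there was 0.10. Of the 41 higher genes, 18 (43.9%) were higher in 66cl4, where 49.9% of all genes were. Sh3bp2 differed by 0.30 in 66cl4, Prex1 by 0.35, Csf2ra by 0.26, Padi1 by 0.35 and Fcer1g by 0.37, each of the opposite sign to 4T1. Flt1 at -0.25 and Sertad4 at 0.61 had the same sign as in 4T1. The difference between the lines themselves passed an adjusted p of 0.05 in 0 genes (0.0%), with 985 (6.88%) at an unadjusted p under 0.05 and a smallest adjusted limma p of 0.388. Its smallest p values were those of Sh3bp2 (-0.70 ± 0.15, SE), Fcer1g (-0.84 ± 0.20) and B3galnt2, a glycosyltransferase of dystroglycan (0.41 ± 0.10). B3galnt2 had 193, 253, 229.5 and 253 normalized reads in the untreated tumors and 359, 286, 250.1, 283 and 325 in the chitin-treated tumors, higher with chitin in 4T1 by 0.26, and differed by -0.15 in 66cl4. These tests of the difference use the 4T1 values by which the 72 genes were picked, so they are not independent of that choice.

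**Figure D3:**
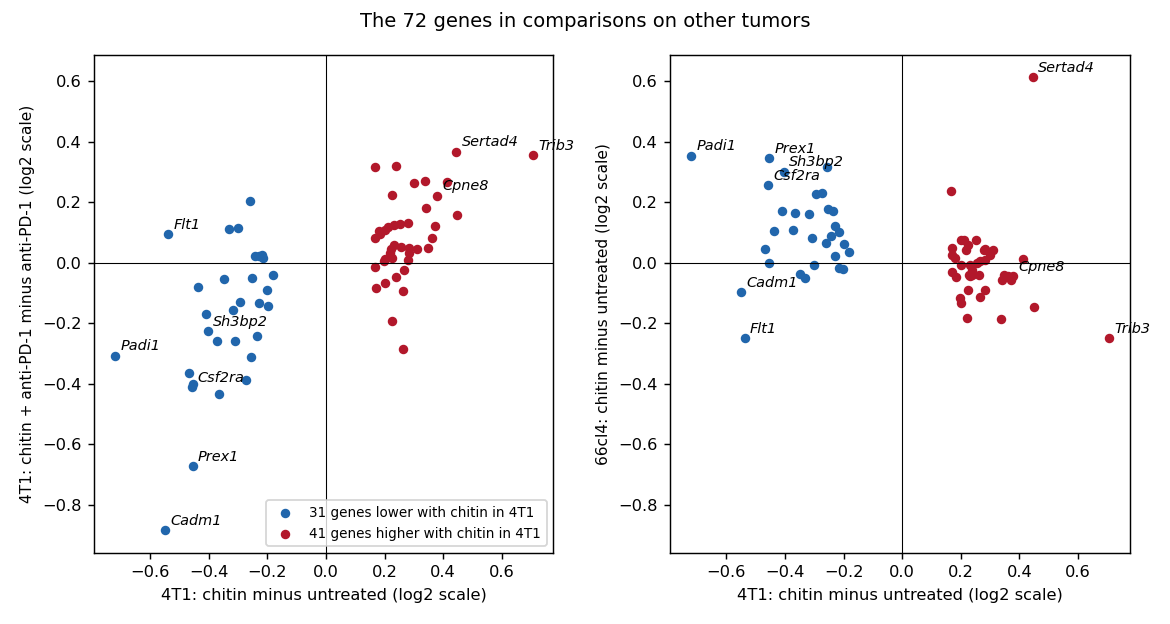
Difference with chitin in 4T1 (x axis) against the difference in other tumors (y axes, all log2 scale) for the 31 lower (blue) and 41 higher (red) genes; left, chitin plus anti-PD-1 minus anti-PD-1 in 4T1, right, chitin minus untreated in 66cl4. On the left 23 of 31 blue and 33 of 41 red points keep their sign, and on the right 7 of 31 and 18 of 41 do.

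Both Myd88 and Socs3 belong to lists of genes of interest here and were separated between the groups. Myd88, the adaptor that carries the TLR2 signal (mm10 chromosome 9, 119335934 to 119340018), had 529.6, 449, 522 and 616 normalized reads in the untreated tumors and 338, 430.2, 390.3, 436 and 408 in the chitin-treated tumors. It differed by -0.32 ± 0.12, and chitin tumor 1 was the lowest. Socs3, a feedback inhibitor induced by STAT3 (mm10 chromosome 11, 117966079 to 117970336), had 1124, 1085, 1055 and 1376 normalized reads in the untreated tumors and 583, 883, 1002, 1025 and 986 in the chitin-treated tumors. It differed by -0.35 ± 0.14, with chitin tumor 1 far below the other chitin-treated tumors, which lay closer to the untreated range. Stat3 itself had 2017, 2229.8, 1996 and 2612 normalized reads in the untreated tumors and 1716, 1701, 2375, 2038 and 1896 in the chitin-treated tumors and differed by -0.18 ± 0.10.

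The sequence before the start of these 2 genes is shown because the letters TTCNNNGAA, the palindrome bound by STAT factors, occur in both. The motif reads the same on both strands and was searched in the 250 bases before the starts in RefSeq's GRCm38.p6 (mm10) table, 32851 windows in all, where 7.02% of windows hold it. In the Myd88 window (chr9:119340019-119340268, minus strand, printed 5′ to 3′) it begins 46 bases before the start and is in capitals. In the window of Socs3 (chromosome 11, 117969367 to 117969616, minus strand) it begins 154 bases before the start, inside the span that RefSeq gives the gene, and 10 bases on each side of it are shown.
Myd88: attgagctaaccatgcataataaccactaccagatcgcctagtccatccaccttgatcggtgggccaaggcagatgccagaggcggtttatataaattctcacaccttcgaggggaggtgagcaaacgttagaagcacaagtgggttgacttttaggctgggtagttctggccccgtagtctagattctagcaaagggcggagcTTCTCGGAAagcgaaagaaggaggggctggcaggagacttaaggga
Socs3: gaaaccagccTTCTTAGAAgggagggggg
A match to these letters is a description of the sequence only, and of the 12 genes of the STAT3 target list with a window, 2 hold it, Socs3 and Icam1, and Myd88 is not on that list. Over that list of 14 genes, 11 lay lower, beside 51.0% of all genes, and the median difference was -0.16 (-0.25 to -0.08 with 1 tumor left out), against -0.00 for all genes. The median nearest to zero was the one without chitin tumor 1. Socs3 was the 1 member lower at an unadjusted p under 0.05, beside 1.38% of all genes. The list median was 0.05 when chitin was added to anti-PD-1 and -0.01 in 66cl4. Cebpb, a transcription factor of emergency granulopoiesis, had the largest lower difference in the list, -0.49 ± 0.33, with overlapping groups.

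No member of the chitinase family itself was separated between the groups. Of 9 chitinases and chitinase-like genes, 4 were in the table, and none had an unadjusted p under 0.05, beside 2.77% of all genes. Chil1, which encodes CHI3L1, had 15.4, 32.8, 61.9 and 39.3 normalized reads in the untreated tumors and 11.4, 20.4, 79.3, 44.9 and 125.9 in the chitin-treated tumors. Its range in the chitin-treated tumors was wider and enclosed all untreated tumors, and the difference was 0.15 ± 0.32. Chil3 had 16.6, 7.82, 6.38 and 87.8 normalized reads in the untreated tumors and 0.95, 21.3, 12.2, 5.91 and 29.9 in the chitin-treated tumors, dominated by untreated tumor 5, and differed by -0.21 ± 0.71. Chil3 reads may be shared with its near-identical neighbours, which were not analysed here. Ovgp1, a member of the family known from the oviduct that had few reads here, differed by 0.03 ± 0.09. Chid1, a distant and broadly expressed relative, had 551, 513, 568 and 490.2 normalized reads in the untreated tumors and 389, 594, 456, 448 and 613 in the chitin-treated tumors and differed by -0.08 ± 0.10. Of 10 measured genes for CHI3L1 receptors and signaling, 7 lay lower, beside 51.0% of all genes. Their median was -0.07 (-0.10 to -0.04 with 1 tumor left out). None had an unadjusted p under 0.05, beside 2.77% of all genes.

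Most genes on the chitin-sensing list lay lower with chitin. Of 10 genes, 9 lay lower with a median of -0.24 (-0.32 to -0.15 with 1 tumor left out). The 1 member lower at an unadjusted p under 0.05 was Myd88, an adaptor rather than a receptor. Over all genes 51.0% lay lower and 1.38% did so at that level. Clec7a, which encodes dectin-1, had 497, 474, 424 and 602 normalized reads in the untreated tumors and 375, 643, 328, 363 and 359 in the chitin-treated tumors and differed by -0.24 ± 0.14. Chitin tumor 2 was the highest of all 9 for it, and the other 4 chitin-treated tumors were below every untreated tumor. Tlr2 had 385, 233, 404 and 381 normalized reads in the untreated tumors and 139, 368, 354, 295 and 380.2 in the chitin-treated tumors and differed by -0.17 ± 0.17, with chitin tumor 1 lowest. Mrc1, the mannose receptor of tissue macrophages, had 506, 749, 2123 and 1591 normalized reads in the untreated tumors and 338, 1029, 948, 723 and 681 in the chitin-treated tumors and differed by -0.54 ± 0.55. The median of the same list was -0.19 when chitin was added to anti-PD-1 and 0.15 in 66cl4. Macrophage genes lay lower too, with a median of -0.38 in 4T1 with chitin alone. How far the chitin-sensing list follows them was not tested.

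Macrophage genes had the largest lower median among the immune lists. In a bulk tumor, fewer cells of a type and less RNA per cell cannot be told apart. Of 19 measured monocyte and macrophage genes, 17 lay lower and 3 did so at an unadjusted p under 0.05, beside 51.0% and 1.38% of all genes, with a median of -0.38 (-0.53 to -0.20 with 1 tumor left out). The median nearest to zero was reached without chitin tumor 1. Itgam, which encodes CD11b, had 854, 1284, 1560.3 and 1377 normalized reads in the untreated tumors and 338, 746, 1382, 663 and 750.4 in the chitin-treated tumors and differed by -0.70 ± 0.29. Chitin tumor 3 lay within the untreated range, while the other 4 chitin-treated tumors were below it. The study gated neutrophils as CD11b-positive too, so Itgam is not particular to macrophages. Msr1, a scavenger receptor, had 911, 1290.0, 2089.6 and 1284 normalized reads in the untreated tumors and 635, 746, 1335, 737 and 737 in the chitin-treated tumors and differed by -0.64 ± 0.23, again with chitin tumor 3 apart from the other 4. Cd68 had 485, 704, 911 and 872 normalized reads in the untreated tumors and 302, 538, 860.0, 382 and 431 in the chitin-treated tumors and differed by -0.50 ± 0.21. C1qc, a complement gene of tissue macrophages, differed by -0.45 ± 0.34.

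The 2 members that lay higher were Gpnmb, at 0.48 ± 0.35, and Spp1, which encodes osteopontin, at 0.37 ± 0.40. For Gpnmb this came from chitin tumors 3 and 5, with 125 and 361 normalized reads. The mean of the macrophage list on the deposited scale was 9.96, 9.92, 10.49 and 10.51 in the untreated and 9.26, 10.27, 10.19, 9.67 and 10.26 in the chitin-treated tumors, so that chitin tumors 1 and 4 lay below every untreated tumor and the other 3 within the untreated range. Its median was -0.65 when chitin was added to anti-PD-1 and 0.30 with chitin in 66cl4. M2-type markers had a median of -0.10 (-0.27 to -0.09 with 1 tumor left out) with 7 of 13 lower.

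**Figure D4:**
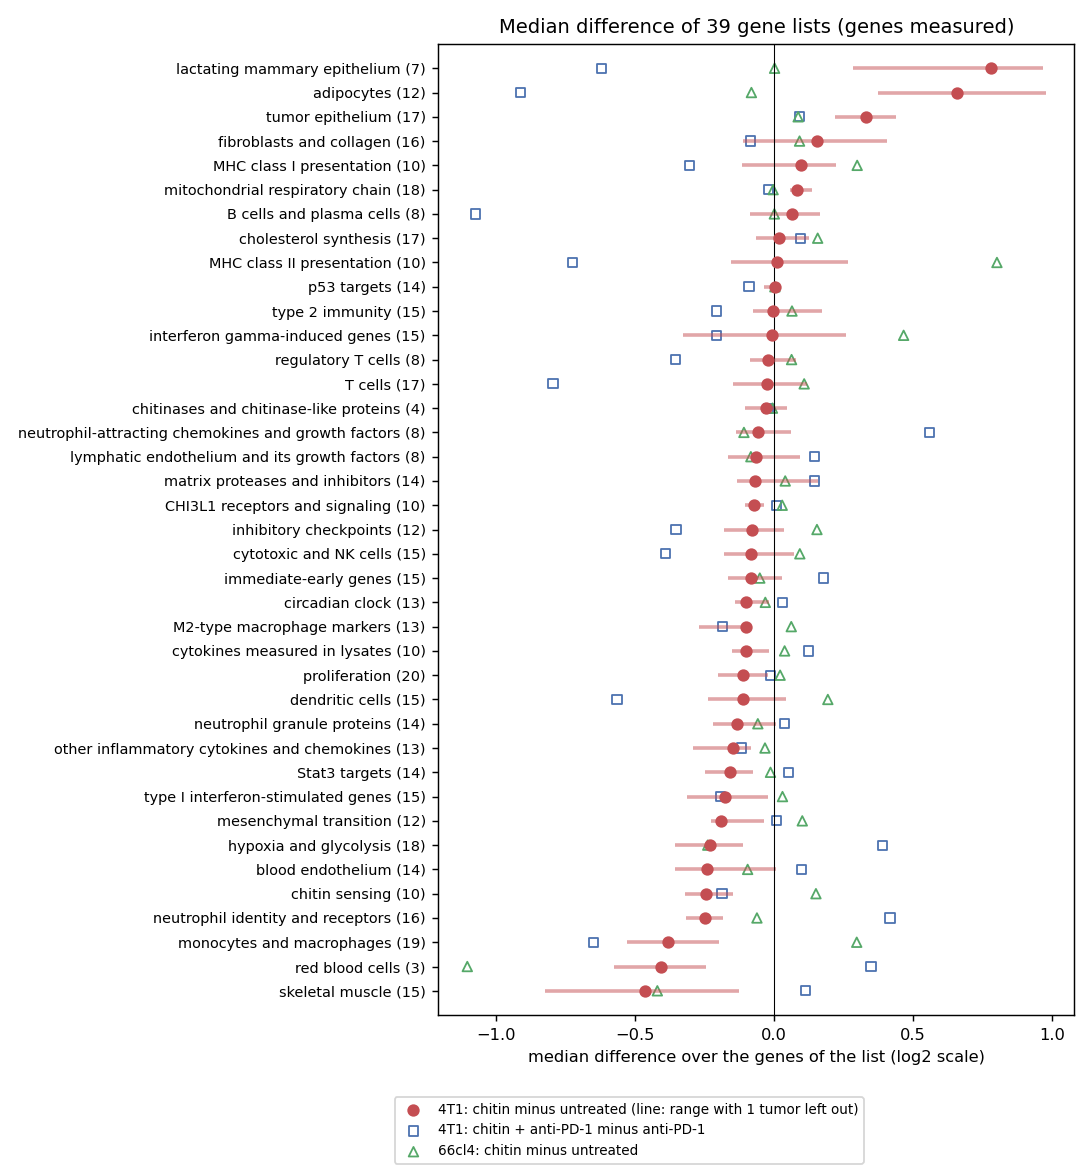
Median difference (x axis, log2 scale) over the measured genes of 39 gene lists (y axis, number of genes in parentheses). Red points are chitin minus untreated in 4T1 with the range over leaving out 1 tumor, blue squares chitin plus anti-PD-1 minus anti-PD-1, and green triangles 66cl4; the macrophage list lies at -0.38, -0.65 and 0.30, and the neutrophil identity list at -0.25, 0.42 and -0.06.

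Most neutrophil genes lay lower with chitin alone, and none passed the test. Of 16 measured identity and receptor genes, 15 lay lower with a median of -0.25 (-0.32 to -0.18 with 1 tumor left out), and 0 had an unadjusted p under 0.05, beside 51.0% of all genes lower and 2.77% at that level. When chitin was added to anti-PD-1 the median was 0.42, and in 66cl4 -0.06. The calgranulin S100a8 had 287, 279.9, 256 and 83.9 normalized reads in the untreated tumors and 73.0, 124, 340.2, 130.1 and 125 in the chitin-treated tumors and differed by -0.35 ± 0.45. Untreated tumor 5 was low and chitin tumor 3 high, against the order of the groups. S100a9 had 452, 432, 408 and 139 normalized reads in the untreated tumors and 94.8, 181, 575, 196 and 216 in the chitin-treated tumors and differed by -0.42 ± 0.50. Cxcr2, the receptor for neutrophil chemokines, differed by -0.20 ± 0.19, Csf3r, the G-CSF receptor, by -0.28 ± 0.24, and the formyl peptide receptor gene Fpr2 by -0.25 ± 0.13. Of 14 measured granule genes 9 lay lower, with a median of -0.13 (-0.22 to 0.01 with 1 tumor left out) that was nearest to zero without chitin tumor 1. Ncf4 was the 1 member at an unadjusted p under 0.05, beside 2.77% of all genes. The granule median was 0.04 when chitin was added to anti-PD-1 and -0.06 in 66cl4. Ltf (lactoferrin), at 0.85 ± 0.66, and Mmp9, at 0.53 ± 0.78, were the largest in the higher direction. Both are also made outside neutrophils, and Ltf is a milk protein. Members that lay lower may be made outside neutrophils too, which was not tested. Padi4, on the identity list, had 1423 to 3075 normalized reads in the 9 tumors, far above S100a8. Csf2, which encodes GM-CSF, differed by 0.26 ± 0.10 with 3.55, 1.56, 7.29 and 2.62 normalized reads in the untreated tumors and 18.96, 6.48, 6.10, 18.3 and 9.97 in the chitin-treated tumors, a level of few reads. It was the 1 member with an unadjusted p under 0.05 among 8 measured neutrophil-attracting chemokines and growth factors, beside 2.77% of all genes. Their median was -0.06 (-0.14 to 0.06 with 1 tumor left out). That median was 0.56 when chitin was added to anti-PD-1 and -0.11 in 66cl4.

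Lymphocyte lists lay close to zero with chitin alone. T cell genes had a median of -0.03 (-0.15 to 0.12 with 1 tumor left out), with 12 of 17 lower. The medians, with the range over leaving out 1 tumor, were -0.02 (-0.09 to 0.08) for regulatory T cell genes, -0.08 (-0.18 to 0.04) for inhibitory checkpoints and 0.07 (-0.09 to 0.16) for B and plasma cell genes. Each of these 4 medians took both signs, and no member had an unadjusted p under 0.05, beside 2.77% of all genes. When chitin was added to anti-PD-1 the medians were -0.80 for T cells, -0.35 for regulatory T cells, -0.35 for checkpoints and -1.07 for B and plasma cells. No range over leaving out 1 tumor is given for medians of that comparison, whose count of genes depended on anti-PD-1 tumor 2. In 66cl4 they were 0.11, 0.06, 0.15 and 0.00 in the same order. Among 15 cytotoxic genes, whose median was -0.08 (-0.18 to 0.07 with 1 tumor left out), perforin (Prf1) had 244, 86.0, 12.8 and 277 normalized reads in the untreated tumors and 54.0, 58.3, 94.9, 38.4 and 89.7 in the chitin-treated tumors and differed by -0.43 ± 0.33. Untreated tumors 1 and 5 had high and untreated tumors 2 and 4 lower values, so that the untreated group enclosed the chitin group. Granzyme B (Gzmb) followed the same order, with 262, 54.7, 18.2 and 351 normalized reads in the untreated tumors and 110.0, 50.0, 148, 58.5 and 62.3 in the chitin-treated tumors and a difference of -0.32 ± 0.45. Jchain, the joining chain of secreted antibodies, spanned 9.46, 32.8, 393 and 465 normalized reads in the untreated tumors and 5.69, 839, 52.9, 26.6 and 1501 in the chitin-treated tumors and differed by 0.30 ± 0.91. Cxcl13, the B cell chemokine, differed by -0.64 ± 0.56, with untreated tumor 5 and chitin tumor 5 above the rest.

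Interferon lists separated tumors rather than groups. Genes induced by interferon gamma had a median of -0.01 (-0.33 to 0.26 with 1 tumor left out), but their mean was 10.85, 9.40, 9.43 and 11.21 in the untreated and 9.62, 9.86, 10.29, 10.18 and 11.01 in the chitin-treated tumors, with untreated tumors 1 and 5 and chitin tumor 5 high. Type I interferon-stimulated genes had a median of -0.18 (-0.31 to -0.02 with 1 tumor left out) with 12 of 15 lower. The median nearest to zero was the one without untreated tumor 5. MHC class I genes had a median of 0.10 (-0.12 to 0.22), MHC class II genes 0.01 (-0.16 to 0.26) and dendritic cell genes -0.11 (-0.24 to 0.04), each of both signs over leaving out 1 tumor. The MHC class II median was -0.72 when chitin was added to anti-PD-1 and 0.80 in 66cl4, the MHC class I median -0.31 when chitin was added to anti-PD-1 and 0.30 in 66cl4, and the dendritic cell median -0.57 when chitin was added to anti-PD-1 and 0.19 in 66cl4. Type 2 immunity genes had a median of -0.00 (-0.08 to 0.17 with 1 tumor left out). Retnla, a type 2 immunity gene of macrophages and fat, was at 0 reads in untreated tumors 1 and 2 and highest in chitin tumor 5. A list of 10 cytokines that were also assayed as proteins had a median of -0.10 (-0.15 to -0.02 with 1 tumor left out), nearest to zero without untreated tumor 5. Other inflammatory cytokines had a median of -0.15 (-0.29 to -0.08 with 1 tumor left out) with 12 of 13 lower. Neither list had a member at an unadjusted p under 0.05, beside 2.77% of all genes. Over all 39 measured genes chosen because they were named, stained or assayed elsewhere in the same work, 30 lay lower, the median was -0.12, and 1 (Itgam) was lower at an unadjusted p under 0.05, beside 51.0% and 1.38% of all genes. Some of these genes were chosen on these same tumors, so their count is not independent evidence of a direction.

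Most epithelial genes lay higher with chitin. Of 17 tumor epithelium genes, 15 lay higher, beside 48.9% of all genes, with a median of 0.33 (0.22 to 0.44 with 1 tumor left out). Krt19 was the 1 member higher at an unadjusted p under 0.05, beside 1.39% of all genes. The list median was 0.09 when chitin was added to anti-PD-1 and 0.09 in 66cl4. Krt19, a simple-epithelium keratin (mm10 chromosome 11, 100140810 to 100145926), had 699, 458, 316 and 669.7 normalized reads in the untreated tumors and 1539.8, 658, 649, 1281 and 1173 in the chitin-treated tumors and differed by 0.82 ± 0.34. Chitin tumors 2 and 3 were within the untreated range and the other 3 above it. Epcam, an epithelial adhesion molecule, had 6425, 4097, 2426 and 6889.7 normalized reads in the untreated tumors and 10397, 8181, 6729.9, 7151 and 9003 in the chitin-treated tumors and differed by 0.82 ± 0.41. Cldn7, a tight junction claudin, differed by 0.54 ± 0.26. Krt8, a keratin of the same kind, had 8822, 10303, 6546 and 7306 normalized reads in the untreated tumors and 17145, 9388, 6348, 7560.3 and 7354 in the chitin-treated tumors and differed by 0.14 ± 0.29, which was -0.10 without chitin tumor 1. Krt5, a basal keratin, had 16.6, 0, 37.3 and 2493 normalized reads in the untreated tumors and 11.4, 1.85, 88.8, 103 and 138 in the chitin-treated tumors, and untreated tumor 5 stood alone. Krt8 and Epcam, which define epithelium, were abundant in all 9 tumors. Mesenchymal transition genes had a median of -0.19 (-0.23 to -0.04 with 1 tumor left out) with 8 of 12 lower, and the median nearest to zero was the one without untreated tumor 5.

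Genes of the surrounding mammary tissue were high in single tumors. Of the adipocyte genes, 11 of 12 lay higher and 0 had an unadjusted p under 0.05, beside 48.9% and 2.77% of all genes. Their median was 0.66 (0.37 to 0.98 with 1 tumor left out). The lowest of that range was without chitin tumor 4. The adipocyte median had the opposite sign elsewhere, -0.91 when chitin was added to anti-PD-1 and -0.08 in 66cl4. Their mean was 6.88, 6.70, 7.497 and 7.95 in the untreated and 6.73, 7.10, 7.87, 9.23 and 8.86 in the chitin-treated tumors, so chitin tumors 4 and 5 stood above all others. Cfd (adipsin) had 23.6, 9.38, 109 and 494 normalized reads in the untreated tumors and 17.1, 41.6, 410.0, 2539 and 1309 in the chitin-treated tumors and Adipoq (adiponectin) had 3.55, 0, 23.7 and 53.7 normalized reads in the untreated tumors and 2.84, 13.9, 64.4, 319 and 209 in the chitin-treated tumors. Milk genes followed chitin tumor 5, in which Csn1s1 had 785 and Csn2 946 normalized reads, and the list of 7 measured genes had a median of 0.78, which was 0.28 without that tumor. The milk gene median was -0.62 when chitin was added to anti-PD-1 and 0.00 in 66cl4. Skeletal muscle genes had a median of -0.47 with all 15 lower, and Acta1 had 203, 3.13, 1669.6 and 667 normalized reads in the untreated tumors and 131, 186, 157, 272 and 2.49 in the chitin-treated tumors, with untreated tumor 4 far above. Without that tumor the muscle median was -0.13. It was 0.11 when chitin was added to anti-PD-1 and -0.42 in 66cl4. The part of fat, gland and muscle in the differences above was not tested.

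**Figure D5:**
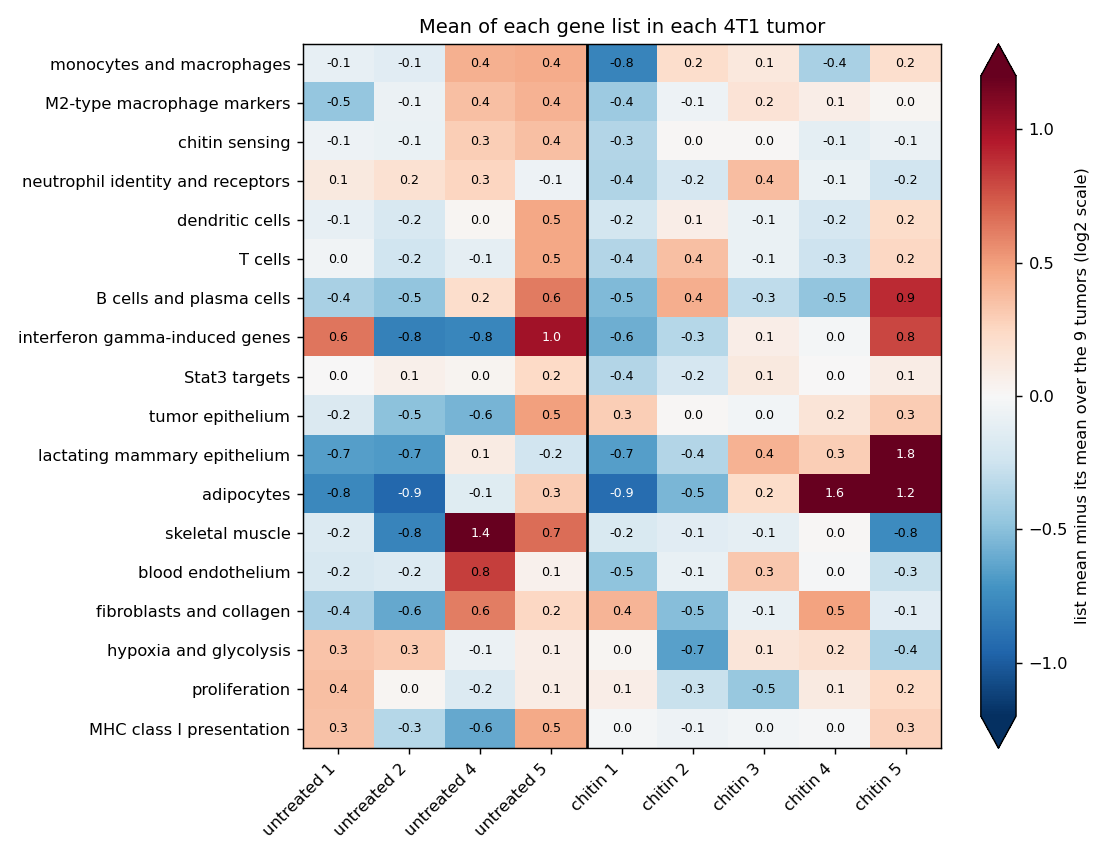
Mean of 18 gene lists (rows) in each of the 9 tumors (columns, untreated left and chitin right of the line), given as the difference from the list's mean over the 9 tumors on the log2 scale and printed in each cell. Chitin tumor 1 is lowest for macrophage genes at -0.80, and chitin tumors 4 and 5 are highest for adipocyte genes.

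Most vessel genes and all hypoxia genes on the lists lay lower. Of 14 blood endothelium genes 12 lay lower with a median of -0.24, which was 0.01 without untreated tumor 4. Flt1 was the 1 member lower at an unadjusted p under 0.05, beside 51.0% of all genes lower and 1.38% at that level. The endothelium median was 0.10 when chitin was added to anti-PD-1 and -0.10 in 66cl4. Pecam1, which encodes CD31, had 676, 755, 1765 and 1157 normalized reads in the untreated tumors and 475, 795, 1179.8, 901 and 642 in the chitin-treated tumors and differed by -0.36 ± 0.32. Among 8 measured lymphatic genes, whose median was -0.07 (-0.17 to 0.09 with 1 tumor left out), the lymphatic growth factor Vegfc had 37.8, 191, 74.7 and 55.04 normalized reads in the untreated tumors and 37.0, 28.7, 58.3, 53.8 and 52.4 in the chitin-treated tumors and differed by -0.35 ± 0.19, with untreated tumor 2 apart from the rest. All 18 hypoxia and glycolysis genes lay lower, with a median of -0.23 (-0.36 to -0.11 with 1 tumor left out), beside 51.0% of all genes. The range was set by leaving out chitin tumors 1 and 2. Egln3 and Ankrd37 did so at an unadjusted p under 0.05, beside 1.38% of all genes.

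Egln3, an oxygen-sensing prolyl hydroxylase that hypoxia induces, had 4268, 2549, 4845 and 3172 normalized reads in the untreated tumors and 726, 2595, 3009, 2727 and 1399.8 in the chitin-treated tumors and differed by -0.90 ± 0.41. Chitin tumors 1 and 5 were lowest, and the other 3 lay within the untreated range. Ankrd37 had 131, 136, 122 and 129.7 normalized reads in the untreated tumors and 107, 74.0, 123, 68.6 and 38.6 in the chitin-treated tumors and differed by -0.38 ± 0.17, the glucose transporter gene Slc2a1 by -0.46 ± 0.44 and Bnip3 by -0.58 ± 0.39. The list mean was 11.42, 11.39, 11.01 and 11.16 in the untreated and 11.10, 10.42, 11.22, 11.27 and 10.69 in the chitin-treated tumors, where chitin tumors 2 and 5 were below all others and the other 3 within the untreated range. The list median was -0.24 in 66cl4, with 18 of 18 lower, and 0.39 when chitin was added to anti-PD-1 in 4T1.

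The other lists held few genes at an unadjusted p under 0.05. Proliferation genes had a median of -0.11 with 19 of 20 lower and none at that level, beside 51.0% and 2.77% of all genes. Their median was -0.02 without untreated tumor 1 and -0.20 without untreated tumor 4, and -0.01 when chitin was added to anti-PD-1 and 0.02 in 66cl4. Mki67 lay at -0.29 ± 0.30 and Rrm2 at -0.40 ± 0.32. The immediate-early phosphatase gene Dusp1 had 292, 319, 465 and 270.0 normalized reads in the untreated tumors and 167, 145, 363, 239 and 125 in the chitin-treated tumors and differed by -0.53 ± 0.21, within a list median of -0.08 (-0.17 to 0.03 with 1 tumor left out). Tef, a clock output gene, differed by -0.28 ± 0.13 within a clock median of -0.10 (-0.14 to -0.02 with 1 tumor left out). Respiratory chain genes had a median of 0.08 (0.06 to 0.14 with 1 tumor left out) with 14 of 18 higher. Their extremes were Cox5a at -0.40 ± 0.19, through a high untreated tumor 4, and Ndufb3 at 0.27 ± 0.14. Fibroblast genes had a median of 0.15, which was -0.11 without untreated tumor 2 and 0.41 without untreated tumor 4. Matrix proteases and inhibitors had a median of -0.07, which was 0.16 without chitin tumor 2. The remaining medians, with the range over leaving out 1 tumor, were 0.02 (-0.07 to 0.12) for cholesterol synthesis, 0.00 (-0.04 to 0.01) for p53 targets and -0.41 (-0.58 to -0.25) for the 3 measured red blood cell genes.

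The tumors were sequenced to 5105898 to 8732427 reads on listed genes in the untreated group and 6030355 to 13156621 in the chitin group. The mean was higher with chitin by 2977190 reads, with a two-sided exact permutation p of 0.111 (the smallest possible is 0.0159). The first principal component of the 9 tumors held 28.8% of the variance and did not separate the groups, with chitin tumor 1 at -28.7 and untreated tumor 5 at 20.3 as its ends. No tumor was left out of the values above unless said.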

How the data were processed

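Tumor RNA (250 ng) was made into stranded libraries and sequenced (150-base paired reads). Per the labels and the study's methods, the authors mapped the sequences with HISAT2 to the mm10 build, assigned them to genes by strand with GenomicAlignments, required over 10 raw counts in 10% or more of the tumors, and deposited DESeq2 variance-stabilized values, which are on a log2 scale; versions of these tools were not given in the sources used here. Inverting that transformation returned whole reads for 100% of values (tolerance 0.001 reads) and so the depth and normalized counts quoted. Such values compress differences of weakly expressed genes. The study states a slightly smaller number of genes after its filter than the 14318 with deposited values, and the reason is not known.

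The 4 groups of 4T1 tumors (19 tumors) were fitted with limma 3.58.1 (trend, R 4.3.3), with Benjamini-Hochberg adjustment over 14318 genes and a threshold of 0.05. Comparisons between lines used 39 tumors. The fit was also run on simulated data. Its rate of recovery is not given here, so the absence of called genes does not show that differences were absent. Depth was compared by an exact permutation test. P-values measure only the spread between tumors. SE is limma's moderated standard error, and ± values are SE. The named genes were the 10 largest differences in each direction among genes with an unadjusted p under 0.05 and no overlap, the 5 smallest p in each direction, genes the study names or assays, the extremes and up to 4 smallest p of each list, and the 3 smallest p of each difference of differences. A subset of these is printed. Outside this rule, list members and relatives were chosen for their known roles after their values were seen: S100a8, Cxcr2, Csf3r, Fpr2, Clec7a, Tlr2, C1qc, Spp1, Epcam, Krt8, Cldn7, Csn2, Adipoq, Pecam1, Slc2a1, Bnip3, Padi2, Padi3 and Padi4. Members and lists were chosen with earlier results of these data known. List genes were matched by symbol or RefSeq gene ID, 490 of 541. Positions and sequences are from RefSeq GRCm38.p6. Alternatives were a filter on the 25% lowest genes, no trend, other sets of tumors, 2 scalings, tumor weights, a replicate block, log2(normalized count + 1), limma-voom, thinned reads and leaving out each tumor.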

Additional observations from a re-analysis of the deposited data

Results flagged for a closer look

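With 4 or 5 tumors in a group, a value that stood apart from its group was looked for in 250 groups of values (list means and single genes), and 18 were found, where chance gives about 1 in 20. The number given is the gap to the nearest other tumor as a share of the group's whole range, set against Dixon's critical value for that group size. Untreated tumor 1 was the lowest of its group for the list red blood cells (0.887, at 8.38 against 9.01 to 9.09) and Sertad4 (0.879, at 8.10 against 8.48 to 8.53). Untreated tumor 1 was the highest of its group for Plekha3 (0.938, at 9.35 against 9.12 to 9.13). Untreated tumor 2 was the lowest of its group for Tlr2 (0.888, at 8.46 against 8.98 to 9.05). Untreated tumor 4 was the lowest of its group for the list CHI3L1 receptors and signaling (0.857, at 9.83 against 9.98 to 10.00). Untreated tumor 5 was the lowest of its group for S100a8 (0.89, at 7.60 against 8.56 to 8.68) and S100a9 (0.903, at 7.99 against 9.06 to 9.17). Untreated tumor 5 was the highest of its group for Cadm1 (0.945, at 8.58 against 8.28 to 8.29). Chitin tumor 1 was the lowest of its group for Socs3 (0.728, at 9.47 against 9.98 to 10.17) and Tlr2 (0.723, at 7.99 against 8.70 to 8.98). Chitin tumor 1 was the highest of its group for Snhg4 (0.741, at 8.004 against 7.45 to 7.59). Chitin tumor 2 was the lowest of its group for the list CHI3L1 receptors and signaling (0.79, at 9.65 against 9.90 to 9.97) and the list matrix proteases and inhibitors (0.841, at 9.37 against 10.37 to 10.56). Chitin tumor 2 was the highest of its group for Clec7a (0.813, at 9.59 against 8.82 to 8.96). Chitin tumor 3 was the highest of its group for Msr1 (0.792, at 10.52 against 9.57 to 9.77). Chitin tumor 5 was the lowest of its group for the list skeletal muscle (0.75, at 6.65 against 7.22 to 7.41). Chitin tumor 5 was the highest of its group for the list MHC class I presentation (0.861, at 12.05 against 11.72 to 11.76) and Csn2 (0.738, at 10.07 against 6.22 to 7.23).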

How the results depend on the processing

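No gene passed an adjusted p of 0.05 between chitin-treated and untreated 4T1 tumors under any of 20 alternatives. Genes past an unadjusted p of 0.05 numbered 1001 (480 higher, 521 lower) when all 39 tumors shared one estimate of the spread and 295 to 624 with 1 tumor left out, the most without untreated tumor 5, against 397. For chitin added to anti-PD-1, genes past an adjusted p of 0.05 numbered 2127 with tumor weights, 1 with the tumor number as a replicate block, 0 to 202 with 1 tumor left out (202 without anti-PD-1 tumor 2, 1 without combination tumor 5). The cause was not tested. With the tumor number as a block, chitin against untreated again gave 0 genes past an adjusted p of 0.05, and 224 higher and 265 lower at an unadjusted p under 0.05. Correlations of same-numbered tumors were 0.19, -0.06, 0.12 and 0.35, and not every tumor correlated best with its own number, so the numbers were not taken as pairs. Of 84 named genes, 11 took the other sign in 20 of 1667 pairs of gene and alternative. With 1 tumor left out these ranged as follows: Chil1 (-0.017 to 0.30), Chil3 (-0.33 to 0.044), Gzmb (-0.69 to 0.0074), Jchain (-0.30 to 0.75), Krt5 (-1.15 to 0.62), Krt8 (-0.096 to 0.26), Ovgp1 (-0.064 to 0.069), Padi2 (-0.23 to 0.017), Padi3 (-0.21 to 0.66), Padi4 (-0.17 to 0.094), Tlr2 (-0.30 to 0.010). Outside leaving out a tumor, Jchain lay at -0.24 and Ovgp1 at -0.039 with limma-voom, and Krt8 at -0.041 with tumor weights. Medians of 20 of 39 lists changed sign in some alternative, and 16 of 780 list values moved by over 1 SD. Median centring shifted the median of all genes by 0.02. Depth limits the values of genes with few reads, such as Dux, Csf2 and Tfr2, most.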
